A study of Mus musculus with 28 samples.

Results

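The RLTR repeats are a large set of rodent endogenous retrovirus sequences, and their small RNA was measured here in 28 mouse sperm libraries. Members were taken as every transposable element whose repeat name starts with RLTR, with the counts of all its copies summed per name and per strand. This gave 185 names of 1121 transposable element names in the tables (183 in the flox and liver knockout table). By the family given in the tables, 36 names were ERV1, 146 were ERVK (144 in the flox and liver knockout table) and 3 were ERVL. Of the names, 10 end in -int, the internal part of a provirus, and the others are long terminal repeats (LTRs).

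Endogenous retroviruses are the remains of germline infections. An intact provirus carries an LTR at each end, which holds the promoter, and an internal part with the gag, pol and env genes, and most copies have since been reduced to a single LTR. In male germ cells such elements are silenced by DNA methylation, by repressive histone marks and by piRNAs, small RNAs bound by PIWI proteins that recognise element transcripts by antisense pairing. Sense reads can come from the element's own transcript, and antisense reads from a transcript that runs across a copy in the opposite direction.

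RNA had been extracted from sperm with Trizol and made into libraries with the Qiaseq small RNA kit. Wild type (WT) mice were kept without alcohol (4 control libraries) or given it at a low (4 libraries), medium (2) or high dose (2), and the sources used here do not give the amounts. Mice labelled Nrf2 -/-, which lack the transcription factor Nrf2, gave 4 control and 4 ethanol libraries, so all libraries of that table carry the deletion. Mice with a floxed Nrf2 gene, the labelled control, gave 4 libraries (Nrf2 flox), and mice with floxed Nrf2 plus Albumin-Cre gave 4 (Nrf2 liver KO). Albumin-Cre acts in hepatocytes, so the sperm of those mice is not the deleted tissue, and no alcohol exposure is stated for these groups. Ages and strains were not stated.

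Total counts ran from 1993933 to 11119711 per library, and 3.46% to 11.6% of them lay on transposable elements. RLTR names held 11467 to 78380 counts per library. Markers of sperm and spermatids summed to 159 to 894 CPM (counts scaled to a library total of 1e6), and all 10 of their genes were detected in each of the 12 WT libraries. Exon counts of Nfe2l2, the gene of Nrf2, were 0 to 20 per Nrf2 -/- library, 0 to 22 per liver KO library and 4 to 47 per WT library. They are few, and the deleted part of the gene is not stated, so they do not check the genotype. Nrf2 -/- controls 1 and 2 stood apart from controls 3 and 4 of the same group. They had 1640 and 1395 CPM of epididymis epithelium markers against 53.8 and 34.6, and comparisons of the Nrf2 -/- table are given with and without them. WT control 1 also stood apart, with 75.8% of its counts on structural RNA against 22.5% to 31.8% in the other 11 WT libraries, and 3.91% on transposable elements against 9.69% to 11.6%.

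RLTR repeats made up 6.67% to 17.5% of the transposable element counts of a library. A few names held most of this. The 3 most abundant names held 41.6% of RLTR counts in WT, 57.4% in Nrf2 -/- and 47.6% in flox and liver KO libraries, and the 10 most abundant held 66.9%, 74.2% and 68.0%. In WT, 125 of 185 names reached a median of 20 counts per library and 48 reached 100. These numbers were 68 and 25 of 185 in the Nrf2 -/- table and 89 and 32 of 183 in the flox and liver KO table. ERV1 names carried 52.6%, 66.2% and 58.7% of RLTR counts in the 3 tables, from 36 names against 146 for ERVK. The 10 internal names carried 31.9%, 50.7% and 41.0%.

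The same names led in each table: 8 were among the 10 most abundant in all 3, namely RLTR14-int, RLTR24, RLTR4_MM-int, RLTR20B3, RLTR13D2, RLTR9A, RLTR26C_MM and RLTR19C. RLTR14-int, an ERV1 internal sequence, held 1.47% ± 0.07 (SD, n = 12) of transposable element counts in WT, 1.47% ± 0.28 (SD, n = 8) in Nrf2 -/- and 1.62% ± 0.17 (SD, n = 8) in flox and liver KO libraries. RLTR24, an ERV1 LTR, held 1.05% ± 0.16 (SD, n = 12), 0.961% ± 0.266 (SD, n = 8) and 0.928% ± 0.134 (SD, n = 8). RLTR14-int ran from 1.38% to 1.65% over the WT libraries and RLTR24 from 0.695% to 1.30%, and RLTR24 reached 1.56% in 1 Nrf2 -/- library. RLTR4_MM-int is the internal part of proviruses related to murine leukemia virus and RLTR4_Mm is their LTR. RLTR4_MM-int held 0.582% ± 0.501 (SD, n = 12; 0.0897% to 1.88%) in WT, 3.42% ± 4.45 (SD, n = 8; 0.0923% to 11.6%) in Nrf2 -/- and 1.66% ± 0.77 (SD, n = 8; 0.377% to 2.64%) in flox and liver KO libraries. The ERVK LTRs followed at lower levels, with 0.314% ± 0.029 for RLTR9A, a family known to act as an enhancer in mouse embryonic stem cells, 0.387% ± 0.067 for RLTR20B3, 0.351% ± 0.033 for RLTR13D2, 0.254% ± 0.015 for RLTR26C_MM and 0.196% ± 0.025 for RLTR19C (SD, n = 12 WT libraries each). Their SDs were small beside their means, so neighbours such as RLTR20B3 and RLTR13D2 overlapped but RLTR14-int lay above every one of the ERVK names in each WT library.

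**Figure D1:**
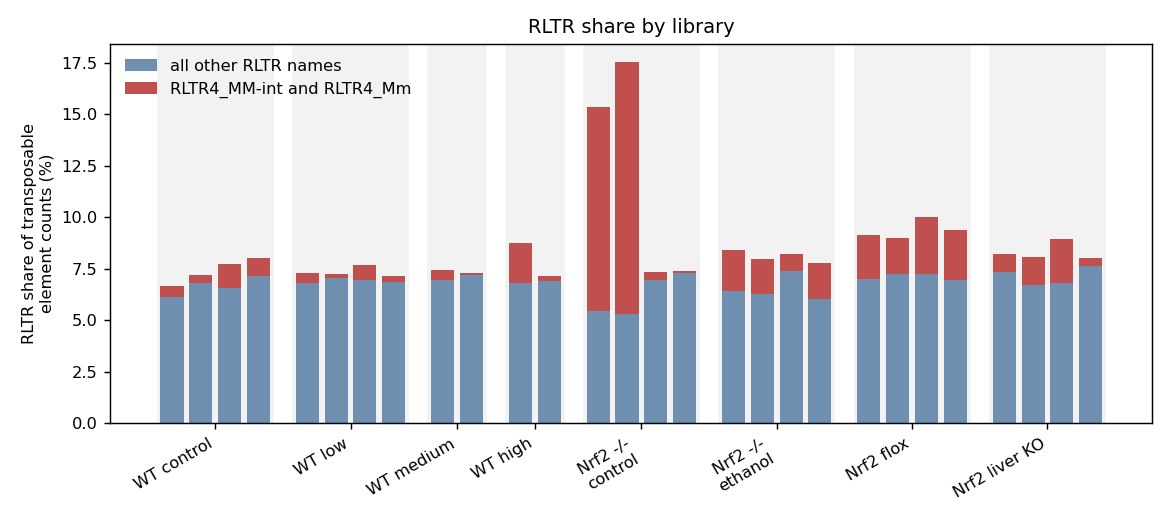
RLTR share of transposable element counts (%, vertical axis) in each of the 28 libraries, grouped along the horizontal axis, with replicates in order of their number. Red is the 2 RLTR4 names and blue all other RLTR names: the blue part stays between 5.31% and 7.63%, and the red part is largest in Nrf2 -/- controls 1 and 2.

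Many names were read mainly from 1 strand, and it was mostly the same strand in every table. Of 67 names with a median of at least 20 counts in every table, 25 had more antisense than sense counts in all 3 tables and 24 had more sense counts in all 3, while 18 were mixed. In all 28 libraries 17 names had more antisense and 15 had more sense counts. Across these 67 names, the log2 ratio of summed antisense to sense counts, each plus 0.5, was compared between tables. It correlated with r = 0.937 (WT and Nrf2 -/-), 0.917 (WT and flox with liver KO) and 0.951 (Nrf2 -/- and flox with liver KO). This is a description over names of the same genome, not a test. RLTR9A had 26697 antisense and 244 sense counts in the WT libraries together, a share of 99.1% antisense that was 99.6% and 99.2% in the other tables. RLTR26C_MM was 98.9%, 99.3% and 98.3% antisense, RLTR19C was 98.8%, 99.6% and 99.0%, and RLTR10E was 98.4%, 97.9% and 99.1%. At the other end, RLTR4_MM-int was 1.45%, 0.522% and 0.927% antisense, RLTR13D2 was 3.70%, 3.77% and 8.31%, and RLTR43C was 2.22%, 2.71% and 6.97%.

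Further names at the extremes, among those with a median of at least 100 counts, were RLTR9A2 on the antisense side in WT (97.6%) and RLTR4_Mm and RLTR41B on the sense side (6.00% and 7.27% antisense). In the Nrf2 -/- table RLTR14_RN (97.7%) was antisense and RLTR4_Mm (0.879%) and RLTR25A (5.86%) sense. In the flox and liver KO table RLTR9A3 (98.2%) was antisense, and RLTR11D (3.58%), RLTR20B2 (4.23%) and RLTR13D1 (5.88%) sense. The abundant RLTR22_Mur was 91.2%, 79.4% and 55.2% antisense, RLTR30B_MM 74.1%, 82.2% and 76.2%, and RLTR28, the only ERVL name among the leading ones, 64.2%, 80.5% and 70.1%. Neither direction held for a whole family. In WT, 11 of the 21 ERV1 names and 51 of the 101 ERVK names with at least 20 counts had more antisense counts.

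**Figure D2:**
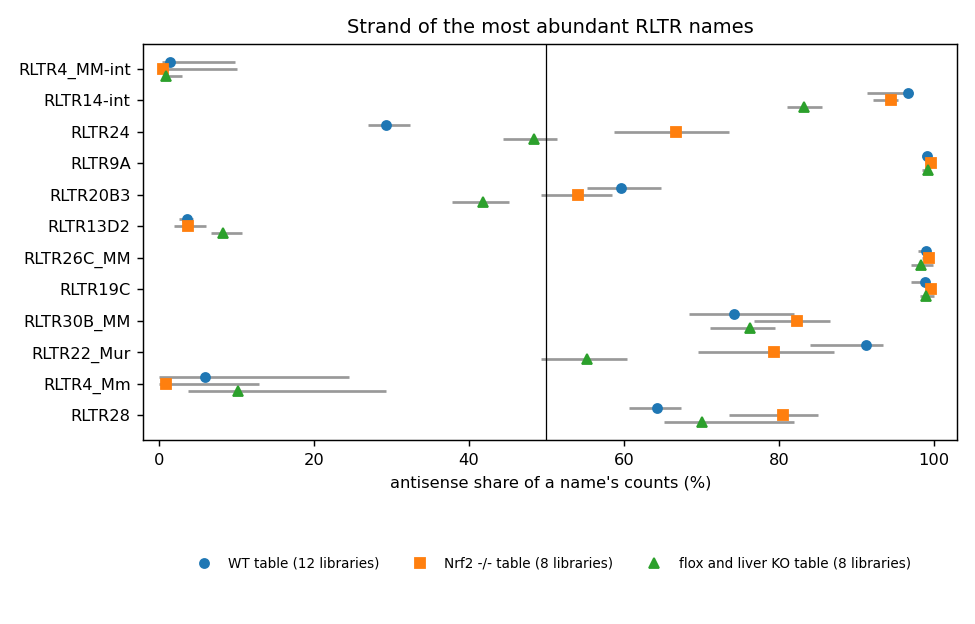
Antisense share of a name's counts (%, horizontal axis) for the 12 names that were among the 10 most abundant in any table. Symbols give the summed counts of a table and grey lines the range over its libraries: RLTR9A, RLTR19C and RLTR26C_MM lie near the antisense end and RLTR4_MM-int and RLTR13D2 near the sense end in all 3 tables, while RLTR24 differs between tables.

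Single copies were still more one-sided. Copies are numbered in the tables without positions, and the same number is the same copy only as far as the tables number copies alike. In WT, 722 copies had at least 20 counts over the 12 libraries, and 642 of them had at least 90% of their counts on 1 strand, 281 antisense and 361 sense. Those 642 held 98.3% of the counts of the 722. The corresponding numbers were 275 of 291 copies with 96.3% of the counts in Nrf2 -/- and 435 of 480 with 81.6% in flox and liver KO libraries. The 10 most abundant copies alone held 38.7%, 38.7% and 32.0% of all RLTR counts. RLTR26C_MM copy 81 held 97.5% of its name's counts in WT, RLTR19C copy 160 held 98.4%, and RLTR13D2 copy 174 held 67.2%, with 1 antisense and 20268 sense counts.

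In RLTR20B3 and RLTR24, both chosen after their values were seen, copies of opposite strands added up to a mixed name. RLTR20B3 was 59.6% antisense in WT, from copy 683 with 19407 antisense and 79 sense counts and copy 925 with 0 antisense and 13247 sense counts. RLTR24 was 29.3% antisense in WT, 66.7% in Nrf2 -/- and 48.4% in flox and liver KO libraries. Its copy 464 was almost wholly antisense in each table (24650 antisense and 63 sense counts in WT, 11445 and 4 in Nrf2 -/-, 8676 and 20 in flox and liver KO libraries), and its copy 466 almost wholly sense (0.256% antisense in WT and 1.81% in flox and liver KO libraries). In WT copy 466 had 32318 sense counts against 24650 antisense counts of copy 464, whereas in the flox and liver KO table it had 4177 against 8676. Both copies kept their strand while the strand share of the name differed between tables. The tables were made separately and hold other mice, so this difference between tables has no test. In RLTR14-int, copies 1315, 1313 and 1314 led in all 3 tables, with 97.0%, 99.8% and 96.8% antisense counts in WT and 89.6%, 99.2% and 80.7% in flox and liver KO libraries. Its copy 1318 did not keep its strand. That copy was 82.5% antisense in WT but 23.8% in flox and liver KO libraries, with 785 antisense and 2510 sense counts there.

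Counts of RLTR4 were spread over many copies. RLTR4_MM-int had sense counts on 31 to 71 copies per WT library, and the leading copy held 11.4% to 49.5% of them. In flox and liver KO libraries 92 to 112 copies had counts and the leading copy held 7.03% to 8.28%. Copies 293 and 377 had identical counts in every WT library, 5376 sense counts each. Among rows with at least 20 counts, those identical to another copy held 87.7% of the RLTR4_Mm counts in WT, 77.8% in Nrf2 -/- and 91.7% in flox and liver KO libraries. For RLTR4_MM-int they held 24.0%, 13.1% and 16.5%. The sources used here do not state how reads that match several copies were counted, so RLTR4 counts may hold the same read at more than 1 copy and their share is uncertain. Over all RLTR names, 52 of 722 copy and strand rows with at least 20 counts in WT matched another in this way and held 2.65% of the counts. Such rows were 20 of 302 with 6.16% of the counts in Nrf2 -/- and 56 of 501 with 5.15% in flox and liver KO libraries. Copy 387 of RLTR4_MM-int had 3761 and 5313 sense counts in Nrf2 -/- controls 1 and 2, 0 and 0 in controls 3 and 4, and 627, 2, 135 and 0 in the ethanol libraries. That copy had no counts in 3 of the 8 libraries, which lay in both groups.

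Antisense RLTR counts exceeded sense counts in 21 of 28 libraries. The ratio of antisense to sense RLTR counts was 1.42, 1.54, 1.24 and 1.36 in WT controls, 1.40, 1.63, 1.34 and 1.56 at the low dose, 1.42 and 1.63 at the medium dose and 0.947 and 1.61 at the high dose. In Nrf2 -/- it was 0.317, 0.252, 1.96 and 2.37 in controls and 1.13, 1.19, 1.77 and 1.10 with ethanol. It was 0.980, 1.12, 0.884 and 0.887 in flox and 1.38, 1.11, 0.993 and 1.58 in liver KO libraries. Nrf2 -/- controls 1 and 2 were the lowest of all 28 and control 4 the highest. Without the 2 RLTR4 names, an alternative chosen after the data were seen, the ratio was 1.66 to 2.46 and above 1 in all 28 libraries.

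**Figure D3:**
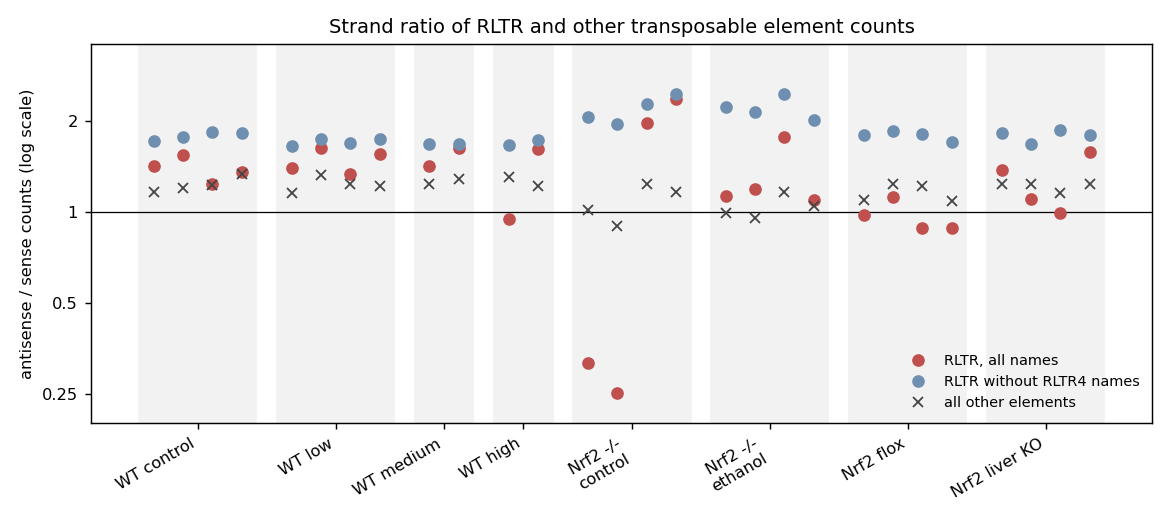
Ratio of antisense to sense counts (vertical axis, log scale) in each library for all RLTR names (red), RLTR without the 2 RLTR4 names (blue) and all other transposable elements (crosses). Red points fall to 0.317 and 0.252 in Nrf2 -/- controls 1 and 2, where blue points stay at 2.07 and 1.96.

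The strand ratio of RLTR was set against that of the other transposable elements in the same library, and no table passed the threshold. The log2 antisense to sense ratio of RLTR exceeded that of the other elements by 0.18 ± 0.24 (SD, n = 12) in WT, with RLTR higher in 11 of 12 libraries (exact sign-flip permutation test, two-sided, p = 0.0298, adjusted over 3 tables p = 0.0894). The difference was -0.08 ± 1.08 (SD, n = 8) in Nrf2 -/- (exact permutation p = 0.844, adjusted 0.844) and -0.12 ± 0.26 (SD, n = 8) in flox and liver KO libraries (exact permutation p = 0.227, adjusted 0.340), with RLTR higher in 6 of 8 and 2 of 8 libraries. The direction depended on which names were kept. Without the most abundant name, RLTR14-int in WT and RLTR4_MM-int in the other tables, the difference was -0.36, 0.93 and 0.57. The p were the smallest these numbers of libraries allow (exact permutation p = 0.000488, 0.00781 and 0.00781, adjusted 0.00146, 0.00781 and 0.00781). The strand of the name left out fixed the direction of this shift. Leaving out RLTR14-int, mostly antisense, can only lower the ratio, and leaving out RLTR4_MM-int, nearly all sense, can only raise it. WT passed the threshold in the opposite direction after such a shift, so no conclusion is drawn from these p. Without the RLTR4 names, which are nearly all sense so that leaving them out can only raise the ratio, it was 0.48, 1.06 and 0.60. When only other LTR elements (IAP, ETn, MERVL, MT, ORR1 and the like) were set against RLTR, the difference was 0.00 in WT, -0.48 in Nrf2 -/- and -0.26 in flox and liver KO libraries (exact permutation p = 0.994, 0.352 and 0.0547, adjusted 0.994, 0.527 and 0.164). Against LINE-1 elements only, taken as names starting with L1, it was 0.78, 0.65 and 0.34 (exact permutation p = 0.000977, 0.133 and 0.0156, adjusted 0.00293, 0.133 and 0.0234). WT and the flox and liver KO libraries passed the threshold there, so the outcome depended on the elements compared.

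RLTR4 levels moved with transcripts of the epididymis, the duct in which sperm mature. RLTR4_MM-int sense CPM, scaled to all counts, were 184, 400, 1254 and 958 in WT controls, 430, 198, 653 and 285 at the low dose, 437 and 85.9 at the medium dose and 1922 and 187 at the high dose. They were 3969, 4568, 223 and 53.8 in Nrf2 -/- controls and 774, 548, 386 and 550 with ethanol. Flox libraries had 1585, 1370, 1782 and 1723 and liver KO libraries 515, 873, 1410 and 279. Levels of 1254 CPM or more occurred in WT control 3, WT high dose library 1, Nrf2 -/- controls 1 and 2, all 4 flox libraries and liver KO library 3. Summed exon CPM of 10 epididymis epithelium genes (Crisp1, Lcn5, Lcn8, Adam7, Cd52, Clu, Rnase9, Defb20, Defb42 and Cst8) ranged over the same libraries from 225 to 623 in WT controls, 147 to 406 at the low dose, 95.8 to 528 at the medium and 294 to 1839 at the high dose. In Nrf2 -/- they ranged from 34.6 to 1640 in controls and 189 to 450 with ethanol, and they were 634 to 806 in flox and 160 to 512 in liver KO libraries. All 10 genes had counts in WT and Nrf2 -/-, and 9 of 10 in flox and liver KO libraries, where Defb20 was at 0. Crisp1, a sperm-coating protein, gave most of the sum, with 27693 counts in WT. Cd52 (6111), Clu (4812) and Adam7 (2529) followed there. Lcn5, Rnase9, Defb20 and Cst8 had only 16, 19, 8 and 46 counts over all WT libraries, and Lcn8, a lipocalin, had 1 or 2 counts in each table. In flox and liver KO libraries Rnase9 and Lcn5 had counts in only 1 and 4 libraries. The sum therefore rests on fewer genes than its list.

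Over the 28 libraries, with both values as log2 deviations from their group mean, RLTR4_MM-int sense counts and epididymis markers had a Pearson r of 0.965 and a Spearman rho of 0.956. With 100000 permutations within groups the permutation p was 2e-05 for r and 3e-05 for rho, and 7.5e-05 and 0.00015 after adjustment over 5 marker lists. Without the 2 libraries farthest from the median of the markers, Nrf2 -/- controls 1 and 4, r was 0.948, without Nrf2 -/- controls 1 and 2 it was 0.925 (rho 0.928, 26 libraries), and within tables it was 0.963 (WT), 0.974 (Nrf2 -/-) and 0.937 (flox and liver KO). The leukocyte list, at 2.48 to 28.8 CPM, gave r = 0.809 and rho = 0.735 (permutation p = 3e-05 and 0.00034, adjusted 7.5e-05 and 0.00085, r = 0.713 without the 2 farthest libraries). The smooth muscle and fibroblast list gave r = 0.468 and rho = 0.502 (permutation p = 0.013 and 0.016, adjusted 0.0217 and 0.0267, r = 0.409 without the 2 farthest). Sperm and spermatid markers gave r = -0.626 and rho = -0.378 (permutation p = 0.2 and 0.16, adjusted 0.25 and 0.2), with r = 0.205 within WT, -0.967 within Nrf2 -/- and 0.0948 within flox and liver KO libraries, and 0.0845 without Nrf2 -/- controls 1 and 2. Red blood cell markers gave r = -0.262 and rho = -0.232 (permutation p = 0.33 and 0.38, the same after adjustment). The relation was looked for after the values had been seen, and both sides are CPM of the same library. In such bulk samples, more cells of a type and more RNA per cell cannot be told apart, and which cells held the RLTR4 RNA was not tested.

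**Figure D4:**
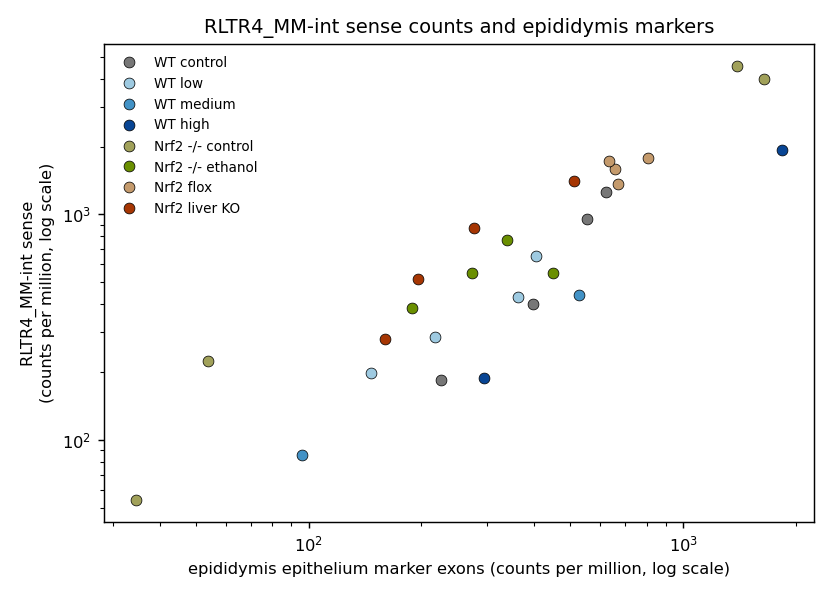
RLTR4_MM-int sense CPM (vertical axis, log scale) against summed epididymis epithelium marker exon CPM (horizontal axis, log scale), 1 point a library, coloured by group. Libraries run from 53.8 and 34.6 (Nrf2 -/- control 4) to 4568 and 1395 (Nrf2 -/- control 2), and the flox libraries lie above all liver KO libraries on the horizontal axis only, since liver KO library 3 (1410) exceeds flox library 2 (1370) on the vertical axis.

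The first question of the design was whether alcohol exposure changed RLTR small RNA in WT sperm. The 3 doses share the same 4 controls. The RLTR share of transposable element counts was 6.67%, 7.20%, 7.73% and 8.02% in controls, 7.31%, 7.25%, 7.67% and 7.16% at the low dose, 7.47% and 7.29% at the medium dose, and 8.77% and 7.14% at the high dose. Every dose overlapped the controls. Differences from the controls were -0.0553 percentage points at the low dose (exact permutation p = 0.886), -0.0256 at the medium dose (exact p = 1), 0.553 at the high dose (exact p = 0.533) and 0.264 for medium and high together (exact p = 0.600), with adjusted p from 0.9 to 1 over the 6 comparisons of the study. The smallest p is 0.0286 for 4 against 4 libraries and 0.0667 for 4 against 2. For the log2 antisense to sense ratio the differences were 0.09, 0.13, -0.17 and -0.02 (exact permutation p = 0.429, 0.333, 0.667 and 1, adjusted 0.643, 0.643, 0.8 and 1). The difference at the high dose was decided by high dose library 1, the one with 1839 CPM of epididymis markers, without which the difference was -0.264 percentage points for the share and 0.22 for the log2 ratio. Without WT control 1 the share differed by -0.301, -0.271, 0.308 and 0.0184 percentage points in the same 4 comparisons (exact permutation p = 0.257, 0.5, 0.8 and 1).

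By name and strand, edgeR's quasi-likelihood test called no RLTR row after alcohol in WT. Of 370 rows, 288 passed the filter on low counts, and the adjusted p had to be under 0.05 over all 17849 non-miRNA features. The share of all features called was 0.0392% at the low dose and 0.0% at the medium dose, the high dose and for both together. At an unadjusted p under 0.05 there were 9, 15, 7 and 6 RLTR rows, or 3.12%, 5.21%, 2.43% and 2.08% of those tested, against 7.40%, 4.71%, 2.78% and 3.00% of all features. DESeq2 also called 0 RLTR rows in these 4 comparisons, and 43, 0, 0 and 1 of all features. The median log2 difference of the RLTR rows was -0.03, 0.13, -0.10 and 0.01, against -0.01, -0.01, 0.00 and -0.03 over all features, and 134, 184, 115 and 149 of the 288 rows were positive. These counts depend on the scaling. With library sizes taken over all classes, 212 to 232 of 293 RLTR rows were positive in each of the 4 comparisons, with medians of 0.16, 0.19, 0.26 and 0.24, and the medians of all features moved to 0.18, 0.07, 0.41 and 0.21.

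The rows with the lowest p are given as values, since none passed. At the low dose RLTR44E sense had 4.03, 10.6, 2.26 and 6.13 CPM (TMM-scaled, of non-miRNA counts) in controls and 2.34, 2.31, 3.39 and 2.25 at the low dose. The groups overlapped, and the log2 difference was -1.24 (SE 0.37, edgeR adjusted p = 0.310). RLTR31B_Mm antisense (-1.30), RLTR12B antisense (0.77), RLTR14-int sense (-0.56) and RLTR33 sense (-0.63) had edgeR adjusted p from 0.494 to 0.640. RLTR14-int, the most abundant name, had 118, 61.7, 50.1 and 66.1 sense CPM in controls and 47.0, 57.3, 45.7 and 50.4 at the low dose, and its difference was -0.23 without control 1, the library with 75.8% structural RNA.

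At the medium dose RLTR13D3A sense stood out in a single library. It had 0.895, 1.69, 1.81 and 2.84 CPM in controls and 0.987 and 32.4 CPM in medium dose libraries 1 and 2. The log2 difference was 3.14 (SE 0.68, edgeR adjusted p = 0.949) and -0.89 without library 2. With no filter on low counts it was called (log2 difference 3.19, edgeR adjusted p = 3.16e-12, 0.113% of all features called), as it was without medium dose library 1 (4.14, adjusted p = 4.61e-06, 0.00953% called). RLTR13C1 sense showed the same library, with 19.6 CPM in medium dose 2 and 3.88 to 7.27 CPM in the other 11, and its log2 difference of 1.08 was -0.21 without it. RLTR31B_Mm (-1.44), RLTR10F (-1.32) and RLTR11D (-0.93), all sense, were lower with edgeR adjusted p = 0.949.

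At the high dose RLTR27 antisense (-1.001), RLTR9A3 sense (-1.21), RLTR20B5_MM sense (-1.16), RLTR44A sense (-0.65) and RLTR35B_MM antisense (-0.91) had the lowest p, all with edgeR adjusted p = 1.00. For medium and high together they were RLTR11D (-0.81), RLTR31B_Mm (-1.11), RLTR13D3A (1.72) and RLTR10F (-1.03), all sense, and RLTR31_Mur antisense (0.96), with edgeR adjusted p = 1.00. RLTR13D3A was called in this comparison too with no filter (1.81, edgeR adjusted p = 0.00135, 0.0597% of all features called) and without medium dose library 1 (2.24, adjusted p = 0.0332, 0.00476% called). Medium dose library 1 was assigned by its label, although its count column carries the letter of the high dose, so values of both doses rest on that label.

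The strand ratio of single names was tested with limma over 590 transposable element names, of which 125 were RLTR. No RLTR name was called at any dose, with 0.0% of all names called. At the low, medium and high dose and for medium and high together, 4, 10, 2 and 8 RLTR names had an unadjusted p under 0.05. These were 3.2%, 8%, 1.6% and 6.4% of the RLTR names tested, against 3.05%, 4.92%, 2.88% and 4.24% of all names. The lowest p were at the medium dose, for RLTR10F (log2 ratio difference 1.84, SE 0.52), RLTR20A2B_MM (-2.09, SE 0.59) and RLTR13D1 (0.89, SE 0.28), each with limma adjusted p = 0.622. RLTR13D1 had positive differences at the low dose too (0.54, limma adjusted p = 0.986), against the same controls. At the low dose RLTR49 (0.80), RLTR30E_MM (1.07), RLTR19 (0.84) and RLTR44E (1.79) were next, and at the high dose RLTR18 (1.06), RLTR14 (0.38), RLTR11D (0.96), RLTR41 (-0.90) and RLTR12A (1.08), with limma adjusted p of 0.986 and 0.994.

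In Nrf2 -/- mice the question was the same for ethanol against no alcohol. The RLTR share was 15.3%, 17.5%, 7.33% and 7.37% in controls and 8.41%, 7.96%, 8.24% and 7.80% with ethanol. The ethanol libraries lay between the 2 pairs of controls, the mean difference was -3.79 percentage points (8.10% ± 0.27 against 11.9% ± 5.3, SD, n = 4 each) and the exact permutation p was 0.429 (adjusted 0.9). Leaving out controls 1 and 2 together, an alternative chosen after the data were seen, reversed it to 0.751. Without the RLTR4 names, also chosen after the data were seen and as a share of the same total, it was 0.293 (6.54% ± 0.59 against 6.25% ± 1.02, SD, n = 4 each). The log2 antisense to sense ratio differed by 0.70 (exact permutation p = 0.429, adjusted 0.643), and by -0.76 against controls 3 and 4 alone. As a share of all counts instead of transposable element counts, RLTR was 0.322% ± 0.058 with ethanol and 0.577% ± 0.110 in controls (SD, n = 4 each), with no overlap (exact permutation p = 0.0286, adjusted 0.0857). Against controls 3 and 4 alone (0.487% and 0.478%) the difference was -0.160 percentage points (exact permutation p = 0.133). Of the counts of all classes but miRNA the difference was -0.300 (exact permutation p = 0.229, adjusted 0.686), and miRNA made up 36.6% to 54.5% of ethanol and 21.5% to 46.2% of control libraries.

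edgeR called 0 of the 118 RLTR rows tested (of 361 with counts) in this comparison, and 0.0% of all 9582 features. There were 3 RLTR rows (2.54%) and 4.89% of all features with an unadjusted p under 0.05, and DESeq2 called 0 RLTR rows and 17 of all features. The median log2 difference was -0.20 for RLTR rows and -0.26 for all features, so differences here are to be read against that shift, and 39 of 118 rows were positive. With library sizes taken over all classes the medians were -0.36 and -0.53, with 26 of 115 RLTR rows positive, and with transposable element names only they were -0.05 and 0.02, with 53 of 116 positive. The lowest p belonged to sense rows of RLTR20 and RLTR17 LTRs. RLTR20C1_MM had 2.92, 4.36, 8.24 and 8.01 CPM in controls and 14.7, 11.4, 8.90 and 17.2 with ethanol, and RLTR20A4 had 7.78, 10.4, 17.9 and 20.5 against 46.0, 29.0, 25.2 and 27.2. All 4 ethanol libraries lay above all 4 controls for both rows, with log2 differences of 1.17 (SE 0.46) and 1.18 (SE 0.46) and an edgeR adjusted p of 0.760. Both rows were picked for their low p among the 118, so this separation is no further evidence. How many of all features separated in this way was not counted. RLTR17B_Mm (0.97), RLTR20C2_MM (1.07) and RLTR10C (-1.04) had the same adjusted p.

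With controls 1 and 2 left out, edgeR called 20 of 138 RLTR rows where it called 22.6% of all 10690 features. Of these, 17 were lower with ethanol and 3 higher, namely RLTR4_MM-int (2.19, adjusted p = 0.00962), RLTR4_Mm (2.10, adjusted p = 0.00834) and RLTR3_Mm (1.95, adjusted p = 0.0435), all sense. In the full set RLTR4_MM-int had 4648, 5642, 400 and 121 CPM in controls and 1506, 1162, 901 and 781 with ethanol, and the ethanol libraries lay between the pairs of controls. Epididymis markers of controls 3 and 4 (53.8 and 34.6 CPM) lay below and those of controls 1 and 2 (1640 and 1395) above all ethanol libraries (189 to 450). Sperm and spermatid markers were 698 and 894 CPM in controls 3 and 4 against 209 to 284 with ethanol, and 159 and 201 CPM in controls 1 and 2. The part of either list in the result was not tested. Strand ratios called 0 of 68 RLTR names by limma (0.0% of 417 names called). An unadjusted p under 0.05 was reached by 6 RLTR names (8.82%), against 4.32% of all names. The lowest p belonged to RLTR45 (1.21), RLTR24 (0.46), RLTR17B_Mm (-0.86), RLTR15 (-1.03) and RLTR26C_MM (-1.60), with limma adjusted p = 0.903. Against controls 3 and 4 alone, RLTR26C_MM was called (-2.95, limma adjusted p = 0.00622, 0.239% of names called). Its sense counts were 1 and 2 in those controls and 3 to 9 with ethanol, beside 340 to 1480 antisense counts.

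The last question was whether deletion of Nrf2 in the liver changed RLTR small RNA in sperm. The RLTR share was 9.15%, 9.00%, 10.0% and 9.39% in flox and 8.23%, 8.09%, 8.94% and 8.03% in liver KO libraries. All 4 liver KO libraries lay below all 4 flox libraries, at 8.32% ± 0.42 against 9.38% ± 0.44 (SD, n = 4 each). The difference of -1.06 percentage points had an exact permutation p of 0.0286, the smallest possible, and 0.171 adjusted over 6 comparisons. Without the RLTR4 names, an alternative chosen after the data were seen, it was 0.0100 (7.13% ± 0.43 against 7.12% ± 0.16, SD, n = 4 each, exact p = 1). The log2 antisense to sense ratio was higher by 0.37 in liver KO (exact permutation p = 0.0857, adjusted 0.514). As a share of all counts, RLTR was 0.569% ± 0.054 in liver KO and 0.710% ± 0.031 in flox libraries (SD, n = 4 each), with no overlap (exact permutation p = 0.0286, adjusted 0.0857).

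RLTR4_Mm sense, the LTR of the murine leukemia virus-related proviruses, had the lowest p of all RLTR rows in this comparison. It had 61.9, 59.1, 87.4 and 57.5 CPM in flox and 13.9, 36.3, 39.8 and 19.9 in liver KO libraries. The groups did not overlap, and the log2 difference was -1.27 (SE 0.29, edgeR adjusted p = 0.0906), which missed the threshold. The row was picked for its low p among the 155 RLTR rows tested, so the lack of overlap is no further evidence. The number of all features that separated in this way was not counted. RLTR6_Mm sense, the LTR of VL30 elements, had 11.1, 11.7, 22.9 and 18.3 CPM in flox and 2.57, 5.92, 11.5 and 5.82 in liver KO libraries, with a log2 difference of -1.28 (SE 0.38, edgeR adjusted p = 0.179). RLTR4_MM-int sense had 1614, 1602, 2105 and 1881 CPM in flox and 866, 1122, 1642 and 414 in liver KO libraries, a log2 difference of -0.83 (SE 0.28, edgeR adjusted p = 0.229). For these 2 rows liver KO library 3 alone reached into the range of the flox libraries.

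**Figure D5:**
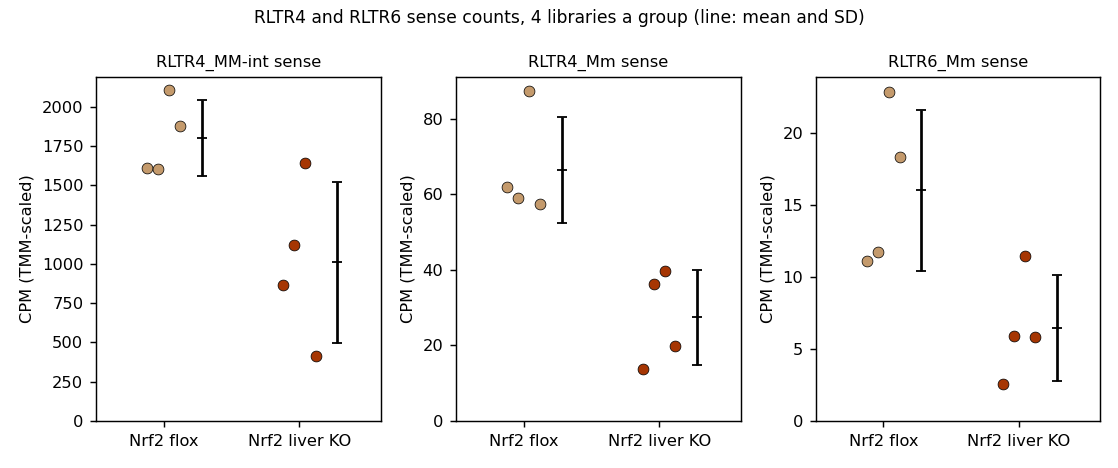
TMM-scaled CPM (vertical axis, from 0) of RLTR4_MM-int, RLTR4_Mm and RLTR6_Mm sense counts in the 4 Nrf2 flox and 4 Nrf2 liver KO libraries, with mean and SD beside the points. For RLTR4_Mm the groups do not overlap (57.5 to 87.4 against 13.9 to 39.8), and for the other 2 rows liver KO library 3 lies within the flox range. All of these rows were picked for their low p.

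Higher in liver KO were RLTR23 sense (11.9, 20.4, 15.6 and 12.6 CPM in flox against 33.4, 26.0, 18.9 and 36.6, log2 difference 0.91, SE 0.29, edgeR adjusted p = 0.198) and RLTR10C sense (1.04, SE 0.39, adjusted p = 0.279). Both groups overlapped for these rows. edgeR called 0 of 155 RLTR rows (of 359 with counts) and 0.0512% of all 9759 features, with 11 RLTR rows (7.10%) and 12.5% of all features at an unadjusted p under 0.05. The median log2 difference was 0.20 over RLTR rows and 0.01 over all features, and 117 of 155 rows were positive. With library sizes taken over all classes the medians were -0.12 and -0.29, with 59 of 156 RLTR rows positive, and with transposable element names only they were 0.01 and 0.02, with 77 of 152 positive.

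Other settings moved RLTR4_Mm past the threshold. DESeq2 called it (adjusted p = 0.00939, 0.625% of features called), as did edgeR with no filter (adjusted p = 0.00350, 0.192% called) and with the replicate number as a block (adjusted p = 0.0495, 0.205% called). Without liver KO library 3, edgeR called RLTR4_Mm (-1.50, adjusted p = 0.0123), RLTR4_MM-int (-1.17, adjusted p = 0.0238) and RLTR6_Mm (-1.70, adjusted p = 0.0276), where 1.86% of all features were called. Epididymis markers were 634 to 806 CPM in flox and 160 to 512 in liver KO libraries without overlap, library 3 being the 512, and their part in the lower RLTR4 counts was not tested.

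Strand ratios of single names called 0 of 89 RLTR names in liver KO (limma, 0.0% of 463 names called). An unadjusted p under 0.05 was reached by 5 RLTR names (5.62%), against 5.18% of all names. RLTR9A, which was 99.2% antisense, had a log2 ratio difference of -0.80 (SE 0.28), RLTR14_RN -0.76 (SE 0.27) and RLTR4_Mm 1.34 (SE 0.53), with limma adjusted p = 0.763. For RLTR9A the sense counts behind this were 5, 8, 7 and 5 in flox and 12, 15, 10 and 8 in liver KO libraries, against 729 to 1349 antisense counts. RLTR20C1_MM (-1.52) and RLTR9F (1.12) had the same adjusted p.

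Exon counts of the genes that silence such elements gave no call. Of 24 piRNA pathway genes (among them Piwil1, Piwil2 and Mov10l1), 15 were tested in WT, 5 in Nrf2 -/- and 7 in flox and liver KO libraries. Of 16 genes of retrovirus silencing by chromatin (among them Setdb1, Trim28 and Dnmt1), 10, 8 and 7 were tested. edgeR called 0 of either list in any of the 6 comparisons. In Nrf2 -/- mice Dnmt1, the maintenance DNA methyltransferase (-1.12, SE 0.44), and Ehmt2, a histone H3 lysine methyltransferase (-1.05, SE 0.39), had an unadjusted p under 0.05 with an edgeR adjusted p of 0.760, against a median of -0.26 over all features, and no gene of either list had one in the other comparisons.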

How the data were processed

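Small RNA counts of 28 mouse sperm libraries were used as the authors deposited them, raw counts per feature in 3 tables (WT, Nrf2 -/-, and flox with liver KO). Per the labels' protocols, RNA was extracted with Trizol and libraries were made with a Qiaseq small RNA kit. The sources used here do not name the aligner, counter or genome build, or say whether molecular identifiers were used and how reads with more than 1 match were counted. Copy identifiers carry no positions, so none are reported. No column of other samples was present (0 not used), no table row lacked a name (0 blank), and no 2 libraries held identical values.

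Groups followed the labels. Nothing states that replicates came from separate animals, so p-values measure the spread between these samples only. Members, marker and pathway lists were chosen with earlier results of these data known. Transposable element counts were summed per repeat name and strand, and other features per name within a class. All non-miRNA features of a table were tested with edgeR 4.0.16 in R 4.3.3 (filterByExpr, TMM, quasi-likelihood F test, two-sided, Benjamini-Hochberg at 0.05), with all 12 WT libraries in 1 fit. Strand ratios per name were tested with limma 3.58.1 on log2 of antisense over sense, each plus 0.5, for names with a median of at least 20 counts. For single values per library, exact permutation tests (two-sided) were used, with p adjusted over 6 comparisons, or 3 tables for RLTR against other elements. CPM in comparisons are TMM-scaled.

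Names were given by rule: the 10 most abundant per table, the 5 highest and 5 lowest strand ratios among names with a median of at least 100 counts, the calls, or else the 5 rows of lowest p. Copies, and calls made under other settings only, were named after their values were seen. Alternatives were DESeq2 1.42.0, other library sizes and denominators, no filter, a pseudocount of 2, only the groups compared, a replicate block, fewer names and each library left out. The fits were checked on simulated counts. Sums, shares and permutation tests used pandas 2.3.3 and numpy 2.4.6 in Python 3.11.15. Ranks and the adjustment of permutation p used scipy 1.17.1, and figures matplotlib 3.10.9.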

Additional observations from a re-analysis of the deposited data

Results flagged for a closer look

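In 3 of the 72 groups of 4 libraries examined, 1 library lay far from the other 3 beside the range of the group, where chance alone gives about 1 in 20 groups. The antisense to sense ratio of RLTR was 1.77 in Nrf2 -/- ethanol library 3, with the others between 1.10 and 1.19. RLTR24 held 1.56% of transposable element counts in the same library, with the next highest at 0.962% and the lowest at 0.954%. Of its counts there, 2375 were antisense and 1127 sense, and its copy 464 had 2288 antisense counts against 927 to 1283 in the other ethanol libraries. RLTR9A held 0.216% in Nrf2 -/- ethanol library 4, with the others between 0.268% and 0.276%.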

How the results depend on the processing

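Of the shares and ratios, 53 of 85 kept their direction and side of the threshold under other settings and 30 reversed. With 1 library left out, 102 of 116 kept them and 13 reversed. Counts of calls, mostly 0, stayed within 1.5 times in 62 of 70 and 125 of 128. The cause of the changes below was not tested unless the setting states it.

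For the RLTR share, leaving out the internal names reversed the difference at the low dose (0.271 percentage points), the medium dose (0.417) and in Nrf2 -/- (0.186). As a share of all counts it was 0.0289 (low) and 0.0232 (medium), and of all classes but miRNA 0.0645 and 0.0523. Without RLTR4 names it was 0.248 (low), 0.406 (medium), 0.293 (Nrf2 -/-) and 0.0100 (liver KO), and without Nrf2 -/- controls 1 and 2 it was 0.751. With 1 library left out it ran from -0.301 to 0.150 (low), -0.271 to 0.180 (medium), -0.264 to 1.37 (high), -0.105 to 0.469 (medium and high), -5.31 to -1.91 (Nrf2 -/-) and -1.27 to -0.854 (liver KO).

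For the log2 strand ratio, the median over names gave -0.0252 (medium), -0.00110 (Nrf2 -/-) and -0.0238 (liver KO). Leaving out the most abundant name gave 0.0064 (medium and high), the internal names -0.0683 (low) and -0.0648 (medium), the RLTR4 names -0.0675 and -0.0930, and Nrf2 -/- controls 1 and 2 -0.76. With 1 library left out it ran from 0.04 to 0.14 (low), 0.03 to 0.23 (medium), -0.55 to 0.22 (high), -0.10 to 0.16 (medium and high), 0.16 to 1.24 (Nrf2 -/-) and 0.25 to 0.48 (liver KO).

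RLTR minus other elements, in the order WT, Nrf2 -/-, flox with liver KO, was 0.78, 0.65 and 0.34 against names starting with L1. It was -0.36, 0.93 and 0.57 without the most abundant RLTR name, and 0.48, 1.06 and 0.60 without RLTR4 names. Without Nrf2 -/- controls 1 and 2 it was 0.47. With 1 library left out it ran from 0.16 to 0.24 (past the threshold without WT high dose 1), from -0.24 to 0.17 (positive without Nrf2 -/- control 1 or control 2) and from -0.18 to -0.07.

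RLTR rows called were 1 with no filter at the medium dose and for medium and high, 1 in liver KO at an adjusted p of 0.1, under DESeq2, with no filter and with the block, and 20 rows and 1 ratio without Nrf2 -/- controls 1 and 2. With 1 library left out they ran from 0 to 1 (medium, and medium and high) and 0 to 3 (liver KO), and stayed at 0 in the other comparisons, as did called ratios. With 1 library left out, the log2 difference of RLTR13D3A sense ran from -0.89 to 4.14 (medium) and -0.29 to 2.24 (medium and high) and that of RLTR13C1 sense from -0.21 to 1.81, each lowest without medium dose library 2.

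By the rule that every same-numbered pair correlates above 0.1, replicate numbers did not pair the libraries, although 10 of 14 such pairs in WT did (1 of 4 in each other table). These correlations were taken over features on log2 CPM as deviations from the group mean, not on the levels themselves. Same-numbered libraries correlated from -0.138 to 0.433 in WT, from -0.483 to 0.409 in Nrf2 -/- and -0.0735 to 0.184 in flox and liver KO. Of the libraries, 7 of 12, 1 of 8 and 2 of 8 correlated best with their own number. In a group of 2 the deviations mirror each other, so some WT pairs repeat 1 value (0.418 for both pairs of medium and high dose). For the share, the replicate block kept only same-numbered pairs. At the medium dose the difference of 0.445 percentage points therefore set its 2 libraries against WT controls 1 and 2, without controls 3 and 4. With the block in edgeR, RLTR4_Mm was the 1 row called in liver KO (-1.35). Rows of a few CPM rest on few counts and limit what could be called.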
